A study of Rattus norvegicus with 20 samples.

Results

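The Gpr series comprises the genes that still carry a numbered "G protein-coupled receptor" symbol, most of them because no accepted endogenous ligand had been assigned when they were named. The members described here are the genes whose symbol is Gpr followed by a number, without *Gpr17*, and which reached a minimum of 5 reads in 10 or more of the 20 rats. Of 71 symbols of this form, 53 met the filter and 18 did not, among 16605 genes kept of 31038 named genes in the count matrix. The series was chosen partly because *Gpr12* is among the strongest decreases in the LSD group, so the values of *Gpr12* are a description and are given with no test.

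Receptors of this class cross the cell membrane with 7 helices and act through heterotrimeric G proteins, which raise or lower cyclic AMP or mobilise calcium, and are then desensitised by receptor kinases and arrestins. Several orphan members signal without any known ligand, and others sense protons, lipids or metabolites. In the forebrain, individual members are known for restricted expression, for instance in striatal projection neurons, oligodendrocytes, microglia or endothelium.

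RNA was measured in the medial prefrontal cortex (mPFC) of 20 male Sprague-Dawley rats, 10 given LSD and 10 given saline, with 1 poly(A)-selected library per rat. By the labels, rats were 6 to 8 weeks old at the start (the study's methods give an older age), were housed singly, and received either LSD at 0.16 mg/kg or sterile saline by intraperitoneal injection every other day over 90 days. According to the labels, tissue was taken after 3 weeks without injections, while the study's methods place it about a week later. LSD (lysergic acid diethylamide) is a psychedelic agonist of serotonin receptors, and long intermittent dosing has been used as a rat model of persistent behavioural change.

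Reads on genes ranged from 16346629 to 25552681 in the LSD group (median 20271086) and from 11098076 to 24201351 in the Saline group (median 16815424), so LSD libraries were deeper. Levels are given as TMM-normalised RPM, that is, reads scaled to a common library size, which are not scaled by transcript length and are compared between rats but not between genes. Neuron markers (summed RPM 7399 to 9732 over all rats), astrocyte markers (2888 to 3762) and cortical layer markers (419 to 574) were present in every rat of this cortical tissue. In 4 rats (LSD replicate 9 and Saline replicates 2, 8 and 9), summed RPM of 8 striatal markers lay between 509.8 and 734.3, against 248.5 to 350.0 in the other 16, so these 4 stood apart. In bulk tissue, fewer cells of a type and less RNA per cell cannot be told apart. Across genes, the log2 fold change also varied with genomic span (Spearman 0.36 over the 89.9% of kept genes with a span), with higher values in LSD for longer genes.

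In the LSD group, *Gpr63* and *Gpr22* were higher than in saline controls, and *Gpr108*, *Gpr62*, *Gpr137*, *Gpr146*, *Gpr162* and *Gpr6* were lower. Thus 8 of the 52 members other than *Gpr12* passed an adjusted p of 0.05 in edgeR's quasi-likelihood test over all kept genes. The 2 higher members make up 3.85% of these 52, against 6.48% of all 16605 genes called higher, and the 6 lower members make up 11.5%, against 8.54% of all genes called lower. Since the series was selected on this same contrast, nothing is read from these shares. For the same reason the following are given as description only: 38 members had a negative and 15 a positive log2 fold change, and their median was -0.11, against 0.00 over all genes. In no member were the LSD and Saline groups without overlap, which was the case for 0.193% of all genes (32 genes). The remaining 44 members did not pass, with log2 fold changes between -0.47 and 0.41.

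**Figure D1:**
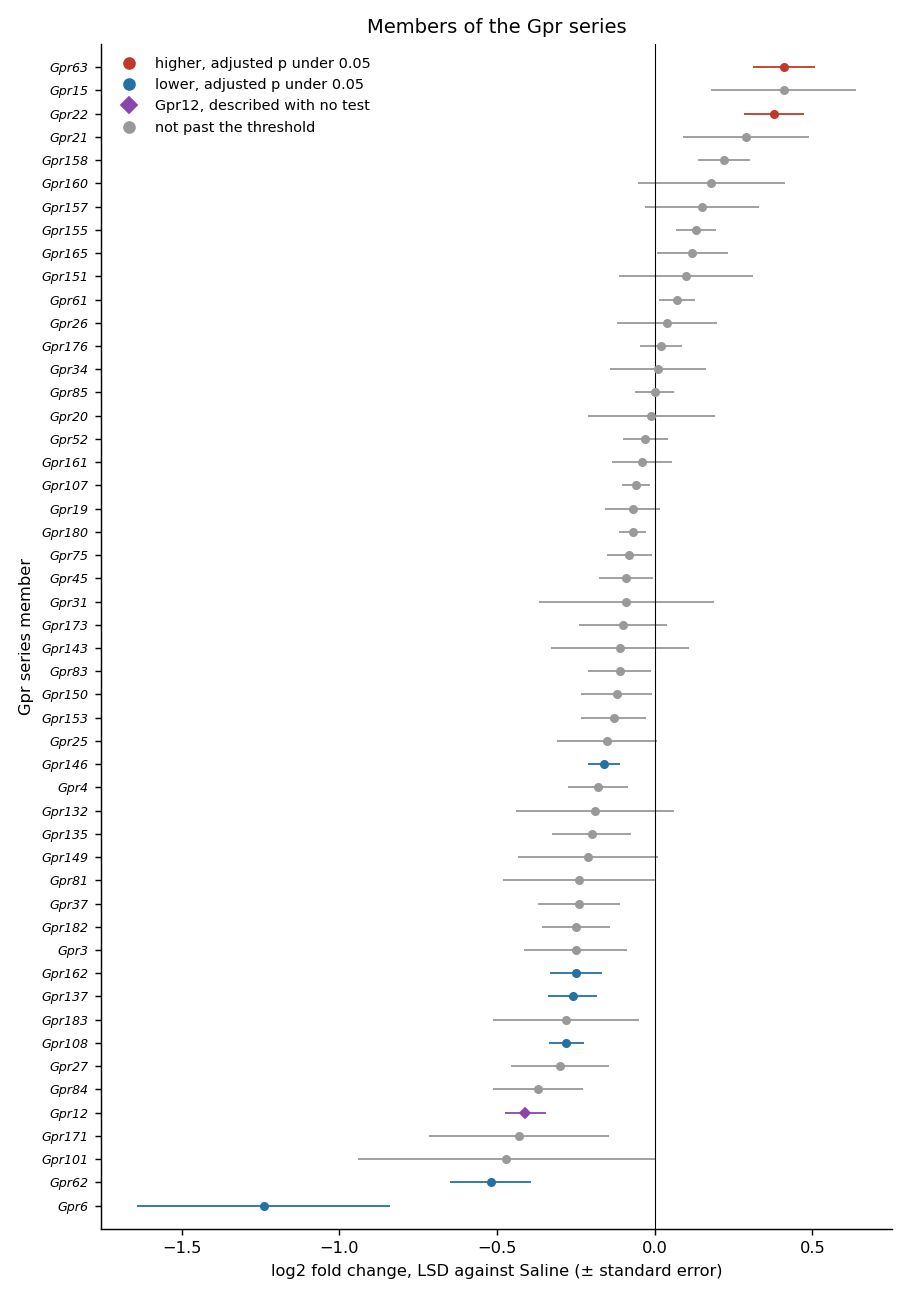
Log2 fold change of LSD against Saline (horizontal axis, point ± standard error) for 50 of the 53 kept members (vertical axis), from the edgeR fit over all genes with 10 rats per group. *Gpr63* and *Gpr22* (red) lie at 0.41 and 0.38, the 6 tested members past the threshold on the lower side (blue) lie between -0.16 and -1.24, *Gpr12* (purple diamond, no test) lies at -0.41, and grey members did not pass.

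*Gpr3*, *Gpr6* and *Gpr12* encode a trio of closely related receptors that couple to Gs and keep adenylyl cyclase active without a ligand. For these 3 members, the 250 bases before their annotated start in RefSeq's GRCr8 annotation are shown, read 5′ to 3′ on the gene's strand. Capitals mark matches on either strand to a cyclic AMP response element (TGACGTCA), a GC box (GGGCGG) or a TATA motif (TATAAA). None of the 3 motifs contains another. The windows are chr5:150698527-150698776 (minus strand) for *Gpr3*, chr20:46075252-46075501 (minus strand) for *Gpr6* and chr12:13637074-13637323 (plus strand, the upstream of 2 annotated starts) for *Gpr12*. These coordinates are of GRCr8, not of the rn6 build to which the reads were aligned.
Gpr3: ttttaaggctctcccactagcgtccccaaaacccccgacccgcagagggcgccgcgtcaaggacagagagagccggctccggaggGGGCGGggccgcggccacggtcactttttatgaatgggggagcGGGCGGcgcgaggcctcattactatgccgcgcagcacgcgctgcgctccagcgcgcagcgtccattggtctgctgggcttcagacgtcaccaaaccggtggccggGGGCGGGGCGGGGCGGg
Gpr6: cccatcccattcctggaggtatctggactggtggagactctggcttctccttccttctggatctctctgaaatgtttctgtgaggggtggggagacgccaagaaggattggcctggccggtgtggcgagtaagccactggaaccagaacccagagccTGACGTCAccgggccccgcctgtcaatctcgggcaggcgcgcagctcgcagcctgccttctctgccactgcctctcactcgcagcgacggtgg
Gpr12: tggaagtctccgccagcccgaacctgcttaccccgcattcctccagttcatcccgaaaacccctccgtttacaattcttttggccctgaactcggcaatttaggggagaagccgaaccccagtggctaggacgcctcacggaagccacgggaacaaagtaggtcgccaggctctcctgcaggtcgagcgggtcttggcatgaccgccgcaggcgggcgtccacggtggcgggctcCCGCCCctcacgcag

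The *Gpr3* window held 30 CpG dinucleotides and 5 GC box matches, of which neighbours in the last run share a base, the *Gpr6* window held 13 CpG and 1 cyclic AMP response element, and the *Gpr12* window held 21 CpG and 1 GC box. None of them held a TATA motif. Over 33469 annotated promoters of the same length, the cyclic AMP element occurred in 1.59%, the GC box in 30.5% and the TATA motif in 12.9%. Among the 39 members with a promoter entry the shares were 2.56% (*Gpr6* alone), 43.6% and 7.69%. These are matches of letters only, and their relation to the RNA levels was not tested.

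*Gpr12* was lower in LSD with little spread. It lay at 8.6, 9.24 and 10.9 RPM (lowest, median and highest) in LSD rats and at 9.71, 12.7 and 13.9 RPM in saline controls. All 10 LSD rats were under the saline median and 9 of 10 saline rats were above every LSD rat, so that a single saline rat (replicate 10) lay within the LSD range. Group means were 9.33 ± 0.687 and 12.4 ± 1.19 RPM (SD, n = 10 each), a log2 fold change of -0.41 (SE 0.0648) or a fold of 0.754. The log2 fold change was -0.38 without the 4 rats that stood apart, -0.38 with the striatal marker level as a covariate and -0.39 with the oligodendrocyte level. It was -0.33 after centring for genomic span.

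*Gpr6* had the lowest log2 fold change of the series and the widest spread of the trio. It lay at 1.54, 2.31 and 10.3 RPM in LSD rats and at 2.97, 4.36 and 19.1 RPM in saline controls. The 4 rats with high striatal markers held the 4 highest values, at 10.3 RPM in LSD replicate 9 and at 10.6, 19.1 and 18.8 RPM in Saline replicates 2, 8 and 9. *Gpr6* is known as a receptor of striatal neurons that project to the globus pallidus, as are *Drd2* and *Adora2a*. *Drd2* lay between 23.1 and 40.2 RPM in the 4 rats and between 5.1 and 17.5 RPM in the others.

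Over all rats, group means of *Gpr6* were 3.28 ± 2.56 RPM in LSD and 7.68 ± 6.41 RPM in Saline (SD, n = 10 each). The log2 fold change was -1.24 (SE 0.401, adjusted p = 0.0394, edgeR). Without the 4 rats the groups stood closer, at 2.5 ± 0.688 RPM in 9 LSD rats and 4.03 ± 1.45 RPM in 7 saline rats. In these 16 rats the log2 fold change was -0.70 (adjusted p = 0.0200, edgeR). With the striatal marker level as a covariate it was -0.34 (adjusted p = 0.119), and with the oligodendrocyte level -0.61 (adjusted p = 0.157). Over all 32 alternative fits its adjusted p ranged from 0.00858 to 0.157, and 16 of them kept the call.

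*Gpr3*, which keeps oocytes in meiotic arrest through cyclic AMP and is also expressed in neurons, did not pass. It lay at 3.99, 6.36 and 9.25 RPM in LSD rats and at 4.58, 8.01 and 11.2 RPM in saline controls, and the ranges overlapped over most of their length. The log2 fold change was -0.25 (95% interval -0.57 to 0.07, adjusted p = 0.304, edgeR).

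**Figure D2:**
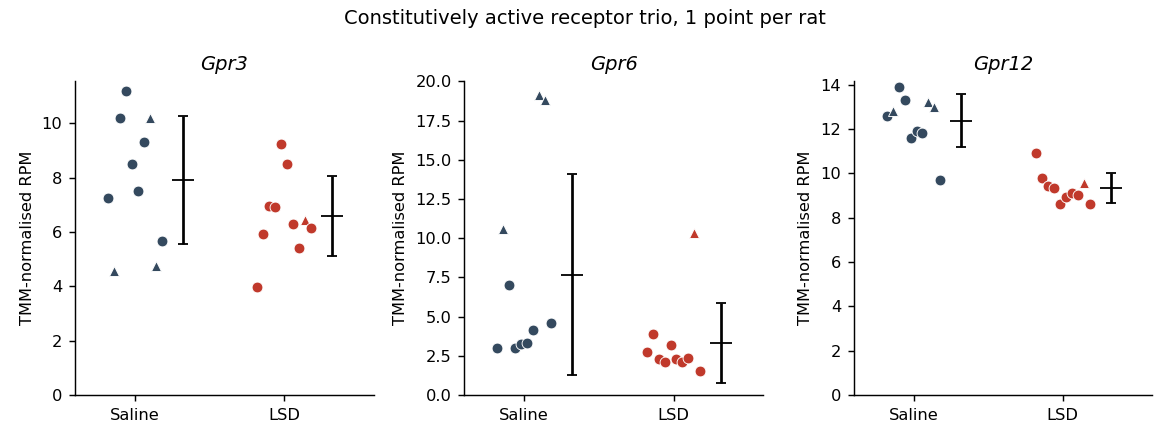
TMM-normalised RPM (vertical axis, from 0) of *Gpr3*, *Gpr6* and *Gpr12* in each rat of the Saline and LSD groups, with triangles for the 4 rats high in striatal markers and bars for mean ± SD (n = 10). *Gpr12* separates all but Saline replicate 10 from the LSD rats, whereas the 4 highest *Gpr6* values, 10.3 to 19.1 RPM, belong to the 4 triangles.

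Among 20 kept class A orphans grouped as neuronal, 2 were called higher and 2 lower (6.48% and 8.54% of all genes), and 13 had a negative log2 fold change, with a group median of -0.08. The group includes *Gpr62*, which followed oligodendrocyte markers across rats (r = 0.82, described below) and was not paired with neuron markers. *Gpr63*, a class A orphan expressed in brain, was higher in LSD. It lay at 8.69, 10.6 and 11.5 RPM in LSD rats and at 5.53, 7.44 and 10.3 RPM in saline controls. All 10 LSD rats were above the saline median, and 8 saline rats were under every LSD rat. This gave a log2 fold change of 0.41 (SE 0.0975, adjusted p = 0.0104, edgeR), a fold of 1.33.

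*Gpr22*, an orphan receptor of brain and heart, was also higher. It lay at 26.7, 29.7 and 38.4 RPM in LSD rats and at 17.4, 23.5 and 31.3 RPM in saline controls, with all 10 LSD rats above the saline median. This corresponds to a log2 fold change of 0.38 (SE 0.0951, adjusted p = 0.0133, edgeR), a fold of 1.30. *Gpr22* was lower in the shallowest library of each group than in the deepest. In LSD these held 28 RPM (replicate 1) and 34.5 RPM (replicate 7), and in Saline 20.4 RPM (replicate 5) and 31.3 RPM (replicate 2). With reads drawn down to the smallest library, the log2 fold change was 0.38 (adjusted p = 0.0186). In the GRCr8 annotation *Gpr22* overlaps *Cog5*, a Golgi tethering subunit, whose log2 fold change was 0.22 (SE 0.0676, adjusted p = 0.0321). The strand setting of the read counting is not given in the sources used here, so reads of the pair cannot be told apart with certainty. The same limit holds for the other members that overlap an annotated gene (14 in all), among them *Gpr146*, *Gpr158*, *Gpr162*, *Gpr34* (with *Cask*, log2 fold change 0.45, adjusted p = 0.0120), *Gpr52* (with *Rabgap1l*, 0.29, adjusted p = 0.0119) and *Gpr183* (with *Ubac2*, -0.15, adjusted p = 0.0269).

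*Gpr62*, a constitutively active receptor found in oligodendrocytes as well as neurons, was lower in LSD. It lay at 6.36, 8.13 and 10.1 RPM in LSD rats and at 7.87, 11.5 and 15.7 RPM in saline controls. All 10 LSD rats were under the saline median and 7 saline rats were above every LSD rat. On the log2 scale the difference was -0.52 (SE 0.129, adjusted p = 0.0123, edgeR).

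Values of *Gpr62* in the 3 saline rats with high striatal markers, 14.6 to 15.7 RPM, were among the highest of their group. Without the 4 rats that stood apart, the log2 fold change was -0.36 (adjusted p = 0.0467), and with the oligodendrocyte marker level as a covariate it was -0.35 (adjusted p = 0.0113). Its adjusted p ranged from 0.00198 to 0.0467 over all 32 alternative fits, so the call held in each. It shares its GRCr8 span with *Pcbp4*, an RNA-binding protein gene, at a log2 fold change of -0.29 (SE 0.0677, adjusted p = 0.0100).

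*Gpr162*, an abundant brain orphan, was lower with a narrower margin. It lay at 296, 328 and 406 RPM in LSD rats and at 295, 398 and 478 RPM in saline controls, with 9 LSD rats under the saline median but the lowest value of all in Saline replicate 2. Its log2 fold change was -0.25 (SE 0.0822, adjusted p = 0.0392, edgeR). It was -0.18 with span offsets (adjusted p = 0.114), within a range of 0.00909 to 0.114 over 32 alternative fits. *Gpr162* was higher in the shallowest library of each group than in the deepest. In LSD these held 406 RPM (replicate 1, 16346629 reads) and 300 RPM (replicate 7, 25552681 reads). In Saline they held 464 RPM (replicate 5, 11098076 reads) and 295 RPM (replicate 2, 24201351 reads). With reads drawn down to the smallest library, the log2 fold change was -0.25 (adjusted p = 0.0475).

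Other neuronal orphans did not pass. *Gpr52*, a Gs-coupled receptor of striatal and cortical neurons, lay at 9.54 ± 0.756 RPM in LSD and 9.71 ± 1.12 RPM in Saline (SD, n = 10 each). *Gpr26*, a constitutively active brain receptor, lay at 49.7 ± 11.2 and 48.5 ± 13.2 RPM. The log2 difference was between -0.17 and 0.11 for *Gpr52* and between -0.27 and 0.35 for *Gpr26* by their 95% intervals.

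*Gpr101*, a Gs-coupled receptor best known from the pituitary and hypothalamus, varied more between rats than between groups. It lay at 0.316, 0.818 and 5.17 RPM in LSD rats and at 0.494, 1.41 and 5.71 RPM in saline controls, and the 4 rats with high striatal markers held its 4 highest values, 3.37 to 5.71 RPM. Its log2 fold change was -0.47 (adjusted p = 0.533, edgeR) over all rats and 0.03 without these 4 (adjusted p = 0.970), within 0.176 to 0.970 over 32 alternative fits. *Gpr161*, a ciliary brake on Hedgehog signalling, and *Gpr176*, a receptor of the circadian pacemaker, had log2 fold changes of -0.04 (SE 0.0956) and 0.02 (SE 0.0659).

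*Gpr158*, a synaptic class C receptor that binds RGS proteins and responds to glycine, lay at 145, 194 and 222 RPM in LSD rats and at 111, 173 and 191 RPM in saline controls. In 9 LSD rats it was above the saline median, but the log2 fold change of 0.22 (SE 0.0833) did not pass (adjusted p = 0.0730, edgeR). *Gpr158* passed in 4 of 32 alternative fits. Its log2 fold change was 0.27 with total counts (adjusted p = 0.0255), where the median over all genes was 0.05, against 0.00 in the main fit. With span offsets it was 0.10 (adjusted p = 0.324), and its adjusted p lay within 0.0255 to 0.324.

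The SREB (super-conserved receptor expressed in brain) family holds *Gpr27*, *Gpr85* and *Gpr173*, none of which was called. *Gpr27* lay at 19.4, 29.2 and 36.2 RPM in LSD rats and at 22.1, 34 and 55.5 RPM in saline controls, a log2 fold change of -0.30 (SE 0.155, adjusted p = 0.190, edgeR). Without the 4 rats high in striatal markers it was -0.44 and passed (adjusted p = 0.0467), within 0.0273 to 0.386 over 32 alternative fits. *Gpr85* had means of 28.3 ± 1.97 and 28.3 ± 3.06 RPM (SD, n = 10 each). *Gpr173* had means of 3.44 ± 0.691 and 3.71 ± 0.945 RPM.

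*Gpr37*, a receptor of oligodendrocytes that restrains their maturation, was not called. It lay at 56.8, 78 and 96.8 RPM in LSD rats and at 54.1, 87.8 and 128 RPM in saline controls. Its log2 fold change was -0.24 (SE 0.131, adjusted p = 0.209, edgeR). It was -0.04 with the oligodendrocyte marker level as a covariate (adjusted p = 0.659) and -0.05 with the striatal level (adjusted p = 0.794), within 0.0902 to 0.794 over 32 alternative fits. Its relative *Gpr37l1*, an astrocyte receptor that is not part of the numbered series, reached a log2 difference of -0.22 without passing (adjusted p = 0.0623).

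Of the proton sensors, which respond to acid in the extracellular space, 3 were kept and none was called. *Gpr4*, found on endothelium, had means of 10.6 ± 1.62 RPM in LSD and 12.0 ± 1.73 RPM in Saline (SD, n = 10 each), and its log2 difference of -0.18 did not pass (adjusted p = 0.214, edgeR). *Gpr132* stayed between 2 and 13 reads per rat.

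Of 8 kept receptors for lipids, metabolites or immune signals, *Gpr146* was called, on the lower side, where 8.54% of all genes were called. *Gpr146*, which regulates plasma cholesterol from the liver, lay at 30.5, 33.4 and 37.7 RPM in LSD rats and at 33.3, 37.3 and 42.6 RPM in saline controls. The ranges overlapped over much of their length, with 8 LSD rats under the saline median. The log2 fold change was -0.16 (SE 0.0514, adjusted p = 0.0364, edgeR). It was -0.11 when scaled by total counts (adjusted p = 0.135), where the median over all genes was 0.05, against 0.00 in the main fit. Its adjusted p lay within 0.0117 to 0.160 over 32 alternative fits, of which 16 kept the call.

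The microglial members gave no call in the main fit. *Gpr34*, a lysophosphatidylserine receptor, lay at 6.84, 9.98 and 12.8 RPM in LSD rats and at 6.59, 8.85 and 16 RPM in saline controls. *Gpr84*, a receptor for medium-chain fatty acids that is induced in activated microglia, lay at 4.27, 6.36 and 10.2 RPM in LSD rats and at 6.61, 8.52 and 12.3 RPM in saline controls. In 9 LSD rats *Gpr84* was under the saline median, with a log2 fold change of -0.37 (SE 0.143, adjusted p = 0.0794, edgeR). *Gpr84* passed in 5 of 32 alternative fits, with an adjusted p within 0.0144 to 0.193. *Gpr183*, an oxysterol receptor that guides immune cells, had means of 1.39 ± 0.603 and 1.66 ± 0.519 RPM (SD, n = 10 each). *Gpr182*, an endothelial scavenger of chemokines, lay at 3.46, 4.03 and 5.16 RPM in LSD rats and at 3.84, 4.57 and 6.59 RPM in saline controls, with a log2 fold change of -0.25 (SE 0.107, adjusted p = 0.118).

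A further 7 kept members are membrane proteins with a Gpr name whose role as cell surface receptors is doubtful. Of these, 2 were called, both lower, beside 8.54% of all genes called lower, and nothing is read from this count. *Gpr108*, a Golgi protein that adeno-associated viruses use to enter cells, lay at 26.7, 30.5 and 36.3 RPM in LSD rats and at 31.9, 37.9 and 41.8 RPM in saline controls. All 10 LSD rats were under the saline median and 7 saline rats were above every LSD rat. This gave a log2 fold change of -0.28 (SE 0.0555, adjusted p = 0.00578, edgeR), a fold of 0.824. For its relative *Gpr107* the log2 difference was -0.06 (SE 0.0441, adjusted p = 0.346).

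*Gpr137*, a lysosomal membrane protein, lay at 108, 127 and 142 RPM in LSD rats and at 123, 148 and 183 RPM in saline controls. All 10 LSD rats were under the saline median. Its log2 fold change was -0.26 (SE 0.0769, adjusted p = 0.0270, edgeR). With span offsets it was -0.18 (adjusted p = 0.109), within 0.00384 to 0.109 over 32 alternative fits. *Gpr155*, a lysosomal cholesterol sensor, had means of 31.2 ± 2.16 RPM in LSD and 28.5 ± 3.36 RPM in Saline and did not pass (log2 fold change 0.13, adjusted p = 0.160).

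**Figure D3:**
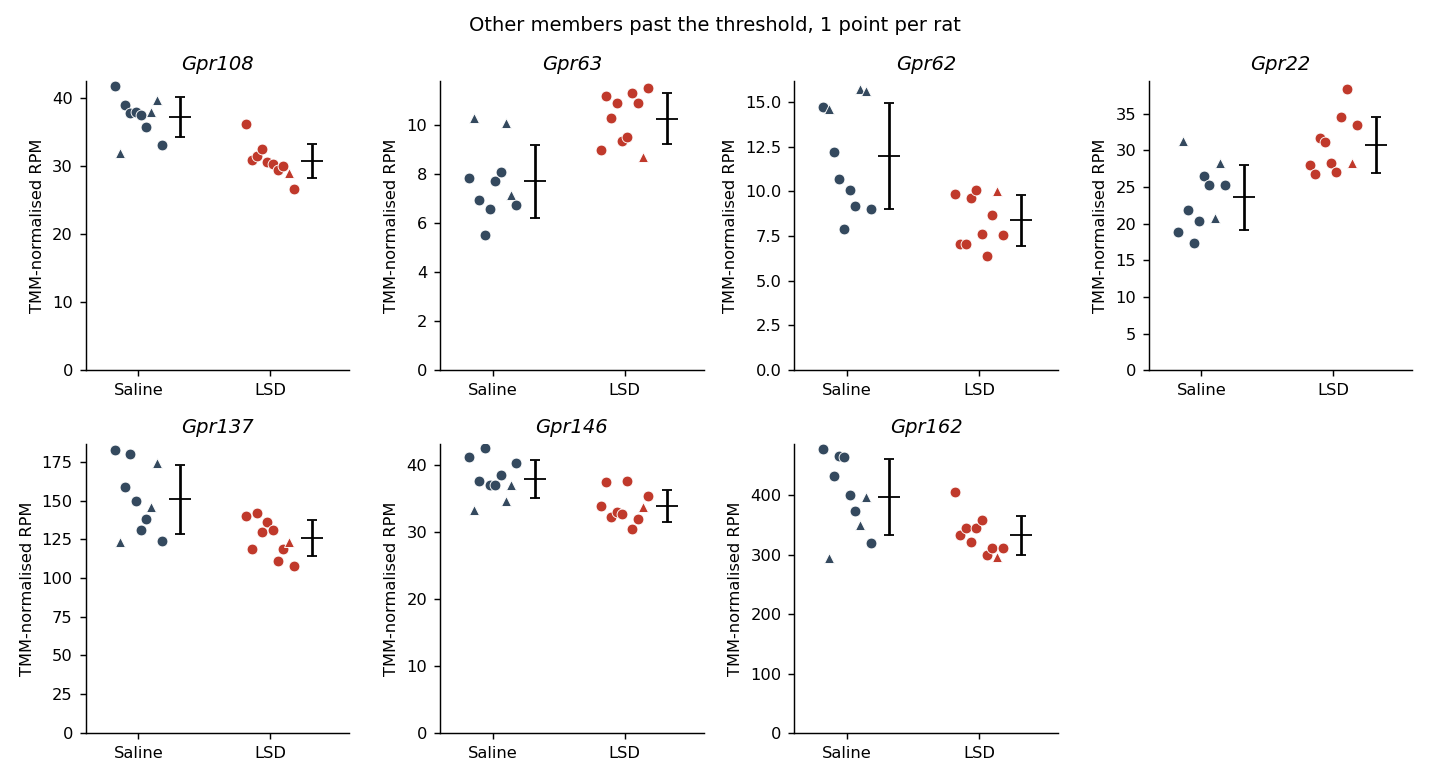
TMM-normalised RPM (vertical axes, from 0, scaled per gene) in each rat for the 7 members that passed the threshold beside *Gpr6*, with triangles for the 4 rats high in striatal markers and bars for mean ± SD (n = 10). *Gpr63* and *Gpr22* are higher in LSD and the other 5 lower, and every pair of groups overlaps.

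Of the members already described, *Gpr108*, *Gpr62*, *Gpr22* and *Gpr63* were called in all 32 alternative fits, and the log2 fold change of *Gpr12* stayed between -0.44 and -0.33. By contrast, *Gpr6*, *Gpr137*, *Gpr146* and *Gpr162* lost the call in some, which left 2 lower members (*Gpr108* and *Gpr62*) both with span offsets and with no filter on low counts. In the 16 rats that did not stand apart these 8 members were called, with log2 fold changes of 0.56 for *Gpr63*, 0.48 for *Gpr22* and -0.28 for *Gpr108*, and *Gpr27* was called in addition. In each group, *Gpr108*, *Gpr137*, *Gpr146* and *Gpr162* were higher in the shallowest library than in the deepest, and *Gpr63* and *Gpr22* were lower. *Gpr6*, *Gpr12* and *Gpr62* differed between the groups in this. LSD libraries were deeper, and the part of library traits that go with depth was not tested.

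The remaining 6 kept members fall outside the role groups, and none was called. They are *Gpr15*, *Gpr20*, *Gpr25*, *Gpr75*, *Gpr81* and *Gpr165*, with log2 fold changes from -0.24 (*Gpr81*, a lactate receptor) to 0.41 (*Gpr15*, a homing receptor of lymphocytes, SE 0.230, adjusted p = 0.241, edgeR).

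Members near the filter had few reads. Just inside it, *Gpr132* and *Gpr171* reached 5 reads in 15 rats, *Gpr21* in 16, *Gpr151* in 17 and *Gpr31* in 19. Just outside it, *Gpr139*, a habenular receptor, reached 5 reads in 9 rats (6 LSD and 3 Saline) and *Gpr152* in 8 (6 LSD and 2 Saline). *Gpr21* and *Gpr151* reached 5 reads in all 10 LSD rats, but in 6 and 7 saline rats. These are raw reads, and the LSD libraries were deeper. Of the 18 members under the filter, 11 reached 5 reads in no rat, and *Gpr142* had no read at all.

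Whether a member followed the cell type or region for which it is known was examined within groups, a measure that the choice of the series did not use. For each of 16 pairs, the member's log2 RPM was related across rats to the mean log2 RPM of fixed markers after subtracting each group's mean, with p-values from 100000 permutations within groups and adjustment over the 16 pairs. In all, 8 pairs passed an adjusted p of 0.05 for r, with raw permutation p-values from 1e-05 (*Gpr37*), the smallest these permutations can give, to 0.0225 (*Gpr6*). Among the other pairs described here the raw permutation p lay between 0.0385 (*Gpr22*) and 0.838 (*Gpr52*).

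The oligodendrocyte pairs were the closest. *Gpr37* followed the oligodendrocyte markers with r = 0.95 (rho = 0.94, adjusted permutation p = 0.00016 for both, n = 20). *Gpr62* followed them with r = 0.82 (rho = 0.78, adjusted permutation p = 0.00096 and 0.00164). Without the 2 rats farthest from the median marker level, r was 0.93 and 0.76. Within LSD rats alone *Gpr37* passed (r = 0.94, adjusted permutation p = 0.00016) and *Gpr62* did not (r = 0.73, adjusted permutation p = 0.0744). In Saline rats alone both passed (r = 0.95 and 0.86, adjusted permutation p = 0.00032 and 0.0141). Both pairs include the 4 rats high in striatal markers, which also held the highest oligodendrocyte levels. All 7 oligodendrocyte markers had a negative log2 fold change in LSD (median -0.36), and their summed RPM ranged from 2262 to 5834 in LSD rats and from 2224 to 7589 in saline controls.

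Of the neuronal pairs, *Gpr26* (r = 0.76, rho = 0.76, adjusted permutation p = 0.00117 and 0.00164), *Gpr162* (r = 0.71, rho = 0.75, adjusted permutation p = 0.00548 and 0.00164) and *Gpr158* (r = 0.59, rho = 0.60, adjusted permutation p = 0.0268 and 0.0231) followed the neuron markers. Without the 2 farthest rats r was 0.63, 0.78 and 0.44. The neuron marker level itself varied little, from 9.07 (Saline replicate 9) to 9.31 (Saline replicate 1) in mean log2(RPM + 0.5). *Gpr22* ran the other way without passing (r = -0.51, rho = -0.45, adjusted permutation p = 0.0654 and 0.103), but its r was -0.70 without the most abundant marker of the list (adjusted permutation p = 0.00614) and -0.15 with total counts (0.733). *Gpr3* (r = 0.45, rho = 0.44, adjusted permutation p = 0.0998 and 0.103, or r = 0.59 and 0.0253 without the most abundant marker) and *Gpr12* (r = 0.33, rho = 0.07, adjusted permutation p = 0.250 and 0.813) did not pass. When levels were scaled by total counts, r fell to 0.54, 0.22 and 0.47 for *Gpr26*, *Gpr162* and *Gpr158*, and none of the 3 passed (adjusted permutation p = 0.0528, 0.566 and 0.120). Within LSD rats alone *Gpr162* passed, and *Gpr26* and *Gpr158* did not (adjusted permutation p = 0.00784, 0.164 and 0.452). In Saline rats alone *Gpr26* passed, and *Gpr162* and *Gpr158* did not (adjusted permutation p = 0.0141, 0.0821 and 0.0821).

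*Gpr182* (r = 0.66, rho = 0.55, adjusted permutation p = 0.00669 and 0.0374) and *Gpr4* (r = 0.64, rho = 0.46, adjusted permutation p = 0.00896 and 0.0955) followed the endothelial markers, with r of 0.50 and 0.48 without the 2 farthest rats. Neither passed within LSD or Saline rats alone. Adjusted permutation p was 0.0575 (LSD) and 0.0895 (Saline) for *Gpr182*, and 0.261 and 0.0586 for *Gpr4*. Of the microglial members, *Gpr183* (r = 0.48, rho = 0.39, adjusted permutation p = 0.0654 and 0.135), *Gpr84* (r = 0.37, rho = 0.05, adjusted permutation p = 0.170 and 0.836) and *Gpr34* (r = 0.06, rho = 0.15, adjusted permutation p = 0.869 and 0.675) did not pass.

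Since the rats fell into separate clusters of striatal marker level, the striatal pairs were taken over the 16 rats that did not stand apart. *Gpr6* followed the striatal markers (r = 0.61, rho = 0.55, adjusted permutation p = 0.0451 and 0.0828, n = 16), but r was 0.43 without the 2 farthest rats, so the relation rests in part on them. Within groups of these rats r was 0.25 for LSD (n = 9, adjusted permutation p = 0.639) and 0.90 for Saline (n = 7, 0.0453), and it was 0.60 with total counts (0.0528). Of these 7 saline rats, replicate 3 held both the highest *Gpr6* (7.02 RPM) and the highest striatal marker sum (350 RPM). *Gpr52* (r = -0.06, rho = -0.19) showed no relation that could be detected in 16 rats (adjusted permutation p = 0.869 and 0.675).

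**Figure D4:**
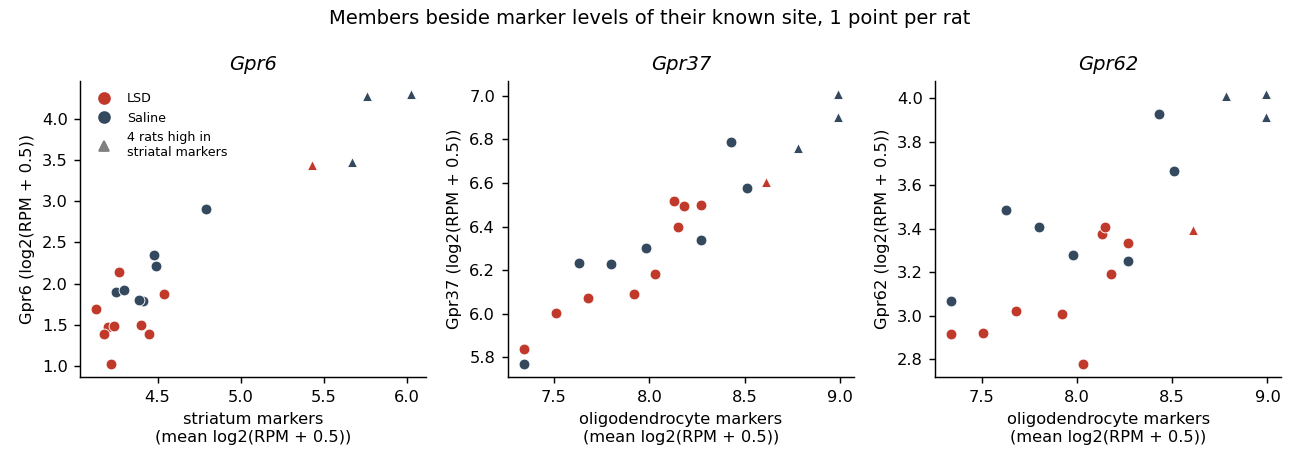
Log2(RPM + 0.5) of *Gpr6*, *Gpr37* and *Gpr62* (vertical axes) against the mean log2(RPM + 0.5) of striatal or oligodendrocyte markers (horizontal axes), 1 point per rat, not centred by group. The 4 triangles are the rats high in striatal markers, which stand apart in the *Gpr6* panel, while *Gpr37* rises with oligodendrocyte markers along the whole range (r = 0.95 after centring).

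Beside these results, the marker lists themselves gave few calls between LSD and Saline in edgeR, which called 6.48% of all genes higher and 8.54% lower. In the neuron list *Gad2* was higher (1 of 8) and in the astrocyte list *Slc1a2* was higher (1 of 7), and no gene was called of 7 oligodendrocyte, 8 microglial, 6 endothelial, 8 striatal and 7 cortical layer markers. At an unadjusted p under 0.05 these 5 lists held 3, 0, 1, 6 and 2 genes, and DESeq2 called 1, 0, 1, 0 and 0. All 8 striatal markers had a negative log2 fold change, with a median of -0.55. Summed microglial markers ranged from 303 to 521 RPM in LSD rats and from 308 to 413 RPM in saline controls, and endothelial ones from 215 to 287 and from 232 to 306 RPM. No listed marker was at 0 in every rat. The part of cell composition in the members' differences was not tested beyond the covariates and omissions given beside each.

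A list of 26 companion genes held genes that act with such receptors and other receptors, such as *Gpr37l1* and *Lgr4*. Of these symbols 24 were kept, *Adrbk1* and *Adrbk2* not being in the matrix, and 2 were higher and 1 lower in LSD. Over all 16605 genes, 6.48% were called higher and 8.54% lower, so nothing is read from these counts. The 2 higher genes encode G protein-coupled receptor-associated sorting proteins, which steer internalised receptors to lysosomes. *Gprasp1* had means of 303 ± 32.4 RPM in LSD and 240 ± 29.7 RPM in Saline (SD, n = 10 each), a log2 fold change of 0.33 (SE 0.0729, adjusted p = 0.00755, edgeR). *Gprasp2* had means of 124 ± 12.7 and 103 ± 8.95 RPM, a log2 fold change of 0.27 (SE 0.0615, adjusted p = 0.00917). Both were called in all 32 alternative fits.

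The lower gene was *Grk6*, a kinase that phosphorylates active receptors, with means of 77.6 ± 4.21 RPM in LSD and 86.8 ± 6.81 RPM in Saline (log2 fold change -0.16, SE 0.0479, adjusted p = 0.0274, edgeR). The other kinases *Grk2*, *Grk3*, *Grk4* and *Grk5* were not called, with log2 fold changes between -0.16 and 0.17. The arrestins *Arrb1* (0.06, SE 0.0463) and *Arrb2* (-0.18, SE 0.0651, adjusted p = 0.0592) did not pass either. The chaperones of G protein alpha subunits, *Ric8a* and *Ric8b*, had log2 fold changes of -0.03 and 0.06.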

How the data were processed

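RNA from the mPFC of 20 rats (10 LSD, 10 Saline, grouped by the treatment label) was sequenced, 1 library per rat. TrimGalore, Hisat2 (genome rn6) and HTSeq-count were used by the authors, who deposited raw counts per gene without normalisation; versions, annotation and strand setting are not given in the sources used here. The matrix ends with 5 unnamed rows, which held between 25.5% and 29% of each library's total and were left out. No pair of libraries was identical.

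Genes that reached 5 reads in 10 or more rats were kept. LSD and Saline were compared with edgeR 4.0.16 (TMM, quasi-likelihood F test, group only) in R 4.3.3, with Benjamini-Hochberg adjustment over 16605 genes and a threshold of 0.05; 95% intervals are normal approximations from the standard error. The step was tested on simulated data. It called 36 of 40 genes at a true log2 change of -1, and 32 of 54 at -0.5. It called 39 of 55 genes at 0.5, 39 of 47 at 1, and 7 of 16291 unchanged genes. Smaller changes were not simulated, so a member that did not pass may still differ. Precision is set by the spread between 10 rats per group, and the labels do not say whether litters or days were shared. Covariation used log2(RPM + 0.5), Python 3.11.15, numpy 2.4.6 and scipy 1.17.1; its p-values are two-sided. Alternatives were a DESeq2 1.42.0 fit, size factors by median ratios, total counts alone for scaling, no filter and a filter of 10 reads, a replicate block, a surrogate variable from sva 3.50.0, reads drawn down to 11098076 per rat, offsets over 50 bins of genomic span (GRCr8), and each rat left out in turn. For covariation they were scaling by total counts, each group alone and each marker list without its most abundant gene. Fits without the 4 rats high in striatal markers and with striatal or oligodendrocyte marker levels as covariates were added after seeing the data. The striatal pairs, planned over 20 rats, were restricted to 16 after the separate clusters were seen.

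Deviations of same-numbered rats had a mean correlation of 0.145 (range -0.259 to 0.467, over 0.1 in 6 of 10 pairs), against -0.0157 for other numbers. Since not every pair was over 0.1 and the labels give no shared origin, the numbers were not taken to pair the rats. Values of 3 kept members, none of them past the threshold, are not reported here, though the counts include them. Named in full were otherwise *Gpr3*, *Gpr6*, *Gpr12*, members past the threshold and those in marker pairs, and the remainder by role or range. Pairs planned for *Gpr56* and *Gpr116* were not formed, as neither symbol is among the kept members. The members and gene lists were chosen with earlier results of these data known. In RefSeq's GRCr8 table all 53 members matched by symbol or synonym, 39 had a promoter entry and 14 overlapped another gene.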

Additional observations from a re-analysis of the deposited data

Results flagged for a closer look

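In 8 of 106 groups of 10 rats examined (53 members in each of 2 groups), the highest or lowest rat lay apart from the others by Dixon's ratio, whose 95% critical value for 10 values is 0.466; chance marks about 1 in 20 groups. *Gpr6* in LSD replicate 9 lay at 10.3 RPM, with the next LSD rat at 3.9 RPM. The same rat held the highest LSD value of *Gpr101*, 5.17 RPM against 2.58 RPM in the next, and is one of the 4 rats high in striatal markers. *Gpr12* in LSD replicate 1 lay at 10.9 RPM, with the next at 9.77 RPM, and this rat remained within the saline range. LSD replicate 3 held the highest LSD values of *Gpr151* (0.594 RPM, next 0.405) and *Gpr160* (1.58 RPM, next 0.962), both members with few reads. LSD replicate 7 held the highest LSD value of *Gpr155* (36.3 RPM, next 32.4) and the lowest of *Gpr165* (4.15 RPM, next 5.43). *Gpr180* in Saline replicate 2 was the lowest saline value at 41.3 RPM, with the next at 46.1 RPM.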

How the results depend on the processing

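Across 32 alternatives 2 to 3 members were called higher. Lower members, *Gpr12* not counted, numbered 6 with all rats, 2 with no filter, 2 with span offsets and 10 with the striatal covariate, and 2 to 7 when 1 rat was left out, with 2 without LSD replicate 8 and 3 without LSD replicates 4, 7 or 10 or Saline replicates 1 or 3. Calls were lost in 11 of these 20 fits for *Gpr6* (adjusted p 0.0107 to 0.0933; LSD replicates 2 to 8 and 10, Saline replicates 3, 8 and 9), 11 for *Gpr146* (0.0137 to 0.0773; LSD replicates 3, 4, 5, 7, 8 and 9, Saline replicates 1, 3, 4, 5 and 7), 13 for *Gpr162* (0.00909 to 0.0826; LSD replicates 2, 3, 4, 7, 8, 9 and 10, Saline replicates 1, 3, 4, 5, 6 and 9), 4 for *Gpr137* (up to 0.0581; LSD replicates 8 and 10, Saline replicates 1 and 4) and 5 for *Grk6* (up to 0.0601; LSD replicates 7 and 8, Saline replicates 1, 3 and 4). The replicate block gave 7 lower members, with *Gpr84* (adjusted p = 0.0194) among those added and *Gpr146* lost (0.0598), and 4 lower companion genes; 1 of 10 LSD rats correlated best with its own number. Lower companion genes, 1 with all rats, numbered 4 with DESeq2, 4 with the surrogate variable, 0 with no filter, drawn-down reads or span offsets, 3 without the 4 rats high in striatal markers, 5 with the striatal and 3 with the oligodendrocyte covariate, and 0 to 4 with 1 rat left out (0 without LSD replicates 7 or 8 or Saline replicates 1, 3 or 4). The sign of fold changes turned for *Gpr52* (0.01 with total counts, 0.04 with span offsets, 0.03 without the 4 rats, 0.03 and 0.01 with the striatal and oligodendrocyte covariates), *Gpr26* (-0.01 with span offsets, -0.07 without the 4 rats, -0.14 and -0.07 with the covariates, -0.05 to 0.10 with 1 rat left out), *Gpr34* (-0.04 to 0.12 with 1 rat left out) and *Gpr101* (0.03 without the 4 rats, 0.43 and 0.19 with the covariates). With total counts, the median log2 fold change over all genes was 0.05, against 0.00 in the main fit. Marker pairs past the threshold numbered 8, but 5 with total counts, 2 in LSD and 4 in Saline rats alone. They numbered 10 without the most abundant marker of each list and 9 with the striatal pairs over all 20 rats. The sign of r turned for *Gpr34* (-0.20, LSD alone), *Gpr12* (-0.06, total counts) and *Gpr52* (0.06 with total counts, 0.06 in Saline alone, 0.43 over all 20 rats). The cause of these changes was not tested, except that fits within 1 group hold 10 rats, or for the striatal pairs 9 LSD or 7 Saline rats. Members near the filter, with as few as 2 reads in a rat, could show large differences only.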
